A study of Mus musculus with 4 samples.

Results

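The nuclear-encoded genes of the mitochondrial respiratory chain were followed across 4 cultures of mouse embryonic stem (ES) cells. The set was chosen by gene symbol in the probe annotation of the array: symbols that start with Nduf (complex I), Sdha to Sdhd (complex II), Uqcr (complex III), Cox4 to Cox8 (complex IV) or Atp5 (complex V, the ATP synthase). Of 16593 annotated genes, 85 matched, on 107 probes. A gene was kept where its detection p-value was below 0.01 on at least 1 of the 4 arrays, which left 76 of the 85 and 8341 genes in all. The set was proposed after values from these arrays had been seen, so its differences between arrays are given as a description.

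The cells were of the line OG2, which carries a GFP reporter transgene driven by Pou5f1 sequences. They grew on gelatin without feeder cells in KSR medium with 1 µM PD0325901 (a MEK inhibitor that blocks ERK activation), 3 µM CHIR99021 (a GSK3 inhibitor) and 1000 U/ml LIF (leukaemia inhibitory factor, a cytokine that signals through JAK kinases to STAT3). For the next 12 h the medium held PD0325901 with LIF, 10 ng/ml FGF2 (fibroblast growth factor 2, which activates ERK) with LIF, PD0325901 with 1 µM JAK inhibitor I, or FGF2 with JAK inhibitor I, each without mention of CHIR99021. FGF2 replaced PD0325901, and the JAK inhibitor replaced LIF, so adding the one and withdrawing the other cannot be told apart. There was 1 Illumina bead array for each of the 4 media, so no difference has a replicate of its condition, and the arrays are called PD0325901+LIF, FGF2+LIF, PD0325901+JAKi and FGF2+JAKi.

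The respiratory chain passes electrons from NADH (through complex I) and succinate (through complex II) to ubiquinone, then through complex III and cytochrome c to complex IV, which reduces oxygen. The proton gradient built on the way drives the ATP synthase. The mitochondrial genome encodes a few core subunits and the nucleus all others, which are made in the cytosol and imported. Naive mouse ES cells are known to respire as well as to use glycolysis, and cells moving towards the primed state are known to rely more on glycolysis. No probe was annotated to the mitochondrial genome, so every value here is for nuclear genes, and all 85 genes lay on nuclear chromosomes.

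Across the 4 arrays the genes of the set were highest most often with PD0325901+LIF, the medium closest to that of the starting culture. Of the 76 genes, 51 (67.1%) had their highest signal on that array, where 29.8% of all 8341 genes did. The highest signal fell on PD0325901+JAKi for 14 genes, on FGF2+LIF for 9 and on FGF2+JAKi for 2. The lowest signal fell on an FGF2 array for 61 genes, 31 with LIF and 30 with the JAK inhibitor, where 26.5% and 20.0% of all genes had it there. The differences were small for most genes, and none of the 76 passed the additive fit described below.

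This order is relative to the other genes of each array, since quantile normalization gives all 4 arrays the same distribution. With each array scaled to its median instead, the highest signal fell on PD0325901+LIF for 39 of 76 genes, where 16.8% of all genes had it there, and on FGF2+JAKi for 26, where 53.8% of all genes had it. The lowest signal then fell on an FGF2 array for 19 genes, 14 with LIF and 5 with the JAK inhibitor, and on PD0325901+JAKi for 57, where 43.3% of all genes had it. With no normalization PD0325901+LIF was no longer the most frequent highest array: it was highest for 25 genes, where 11.4% of all genes had it, and FGF2+JAKi for 42, where 66.7% had it. PD0325901+JAKi was then lowest for 64 genes, where 49.7% of all genes had it there. In the FGF2 difference in the JAK inhibitor median scaling turned the sign of 52 of 76 genes and in the JAK inhibitor difference with FGF2 that of 22. In the FGF2 difference in LIF and the JAK inhibitor difference with PD0325901 it turned 8 and 13. Every direction given below is that of the quantile-normalized values.

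**Figure D1:**
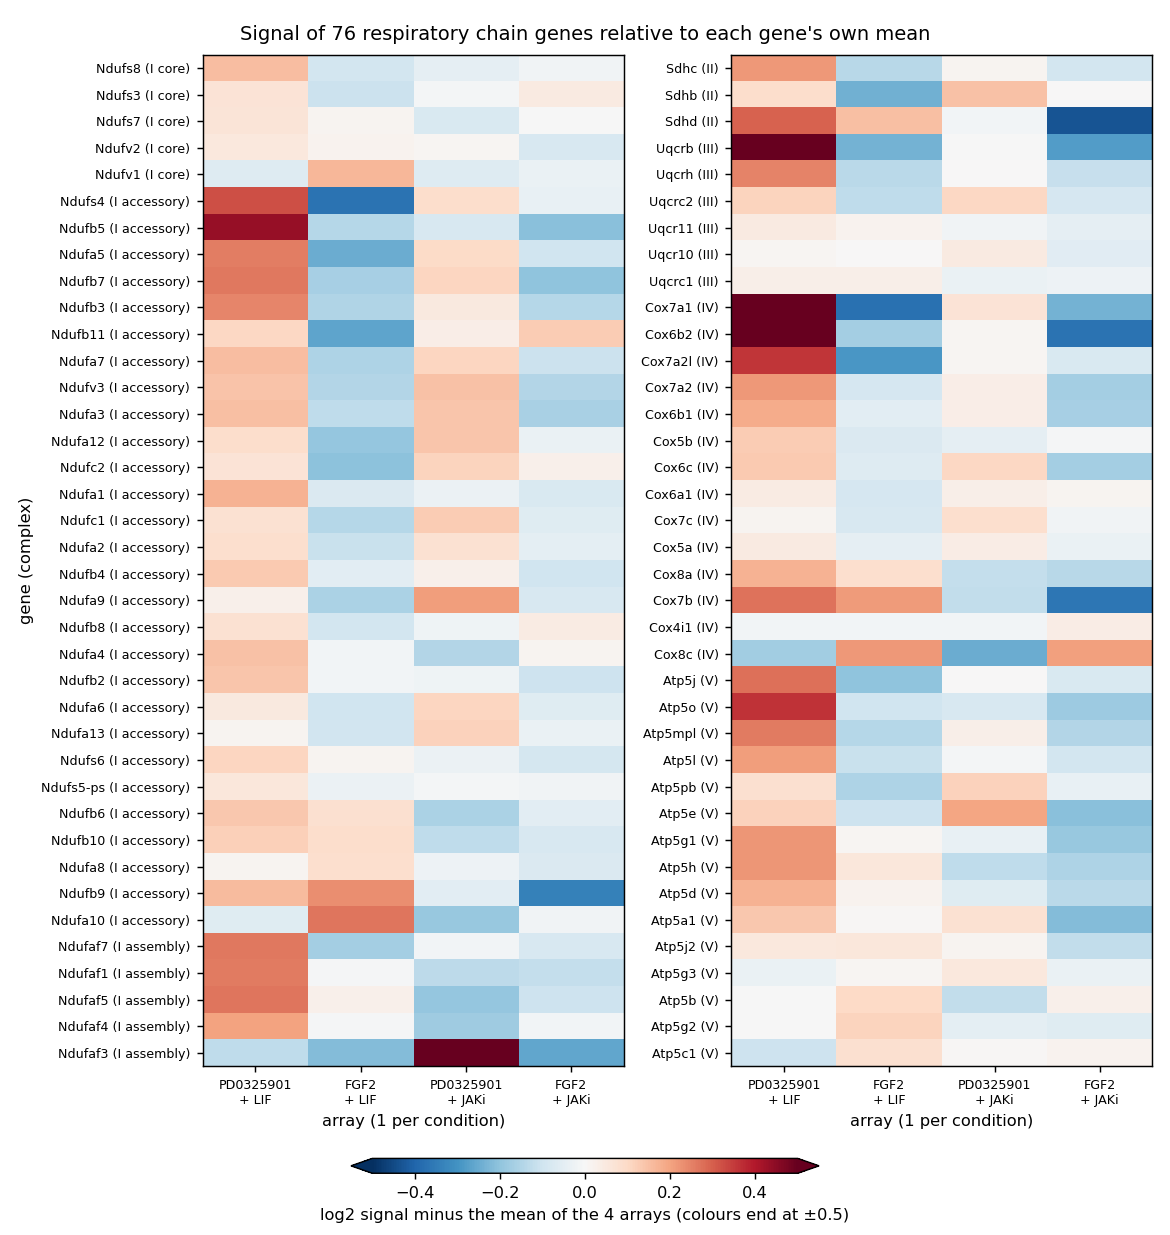
Log2 normalized signal of each of the 76 detected genes (rows, with the complex in brackets) on each of the 4 arrays (columns), as the difference from that gene's own mean over the 4 arrays. Red is above and blue below the gene's mean, the colours end at 0.5 log2 units either way, and the column of PD0325901+LIF holds the highest value of 51 genes.

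The genes Atp5k, Ndufab1, Ndufs1, Uqcrfs1, Uqcrq, Cox4i2, Cox6a2, Cox7b2 and Cox8b were annotated but not detected on any array, with lowest detection p-values from 0.0263 (Cox6a2) to 0.490 (Ndufs1). Each of these 9 genes had 1 probe, and a probe without signal does not show that a gene is silent: Ndufs1, Uqcrfs1 and Ndufab1 encode subunits that complexes I and III are known to need. Cox4i2, Cox6a2, Cox7b2 and Cox8b are known as tissue-restricted isoforms of complex IV subunits. Detected on some arrays only were Ndufb11, on 3 arrays, and Ndufaf3, on 1 array. Their highest detection p-values, from arrays where they were not detected, were 0.0439 and 0.0213. The remaining 74 genes were detected on all 4 arrays. They were bright, with a median of 10.75 for the mean log2 signal against 6.88 over all genes, and 68 of the 76 lay among the 4171 genes above the median signal. The signal of a probe depends on its sequence, so the levels of different genes are not compared below.

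Values are log2 normalized signals, and the error given with each is the standard error over the beads of that probe on that array. It covers the measurement on 1 array and not the spread between cultures. The median bead error of a difference between 2 arrays was 0.083 over the set and the largest was 0.26. By array, 10626 to 10927 of 25697 probes were detected. Of the genes that check the switch, the ERK targets Egr1 and Dusp6 were called higher with FGF2, and the STAT3 targets Socs3 and Stat3 were called lower with the JAK inhibitor (additive limma fit, adjusted p below 0.05). The ES cell marker Pou5f1 lay between 12.55 and 12.62 on the 4 arrays, and all 5 ES cell markers were detected. Nanog measured 11.32, 10.71, 10.90 and 10.34 in the order PD0325901+LIF, FGF2+LIF, PD0325901+JAKi, FGF2+JAKi, so it was highest on the first array and lowest on the last. Esrrb measured 12.37, 12.49, 12.20 and 12.04 in that order, and neither gene was called for either factor. The part of these differences in the results on the set was not tested.

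The genes with the lowest differences between FGF2 and PD0325901 in LIF encode an accessory subunit of complex I, a small subunit of complex III and members of the nuclear subunit families of complex IV. They are the only 5 of 76 genes that differed by at least 1.5-fold in that difference, all of them lower, where 3.87% of all genes were lower by as much and 5.61% higher. The rule that named them used this difference, so their order is a description. In the authors' deposited values Ndufb5 (-0.59), Ndufb11 (-1.10) and Cox8c (0.72) passed 1.5-fold in this difference as well. The promoter sequences of 3 genes are printed here to set the gene with the lowest difference (Cox7a1) and an accessory subunit of complex I (Ndufs4) beside a gene of complex III whose signal was level (Uqcrc1). The sequences are from RefSeq (GRCm38.p6), run 5′ to 3′ on the strand of the gene and cover 250 bases before to 50 after the start site. Capitals mark matches to 2 searched motifs, GCGCA followed by any 1 base and GCGC (the site of NRF1, a known activator of respiratory chain genes) and AAGATGGC (the site of YY1), on either strand. No matches overlap in these 3 sequences. The 3 genes were picked and do not stand for the set. Ndufa5 and Atp5o, with FGF2 differences in LIF of -0.50 and -0.46, had an NRF1 match. Uqcr10 and Uqcr11, at -0.01 and -0.03, had none. The medians with and without each motif are given below.
Cox7a1, chr7:30183921-30184220, plus strand: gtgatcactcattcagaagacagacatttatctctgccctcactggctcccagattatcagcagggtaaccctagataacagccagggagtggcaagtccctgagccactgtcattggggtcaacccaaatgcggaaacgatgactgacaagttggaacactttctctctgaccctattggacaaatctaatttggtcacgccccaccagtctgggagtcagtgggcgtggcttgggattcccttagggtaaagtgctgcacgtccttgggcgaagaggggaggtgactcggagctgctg
Ndufs4, chr13:114388045-114388344, minus strand: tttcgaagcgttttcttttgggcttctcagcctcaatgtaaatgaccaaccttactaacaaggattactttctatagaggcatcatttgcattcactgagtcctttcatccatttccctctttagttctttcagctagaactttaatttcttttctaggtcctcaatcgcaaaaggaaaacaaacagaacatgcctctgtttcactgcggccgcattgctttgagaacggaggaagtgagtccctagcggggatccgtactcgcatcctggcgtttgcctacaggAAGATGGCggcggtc
Uqcrc1, chr9:108936398-108936697, plus strand: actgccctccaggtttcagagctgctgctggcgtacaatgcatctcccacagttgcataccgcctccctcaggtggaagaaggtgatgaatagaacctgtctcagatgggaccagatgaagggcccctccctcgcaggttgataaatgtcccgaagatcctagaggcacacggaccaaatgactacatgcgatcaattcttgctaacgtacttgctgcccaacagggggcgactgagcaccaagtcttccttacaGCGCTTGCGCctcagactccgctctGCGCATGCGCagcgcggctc

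Cox7a1 encodes the isoform of the complex IV subunit VIIa that is known as the heart and muscle form. Its signal (probe ILMN_1240857) was 8.78 ± 0.09 with PD0325901+LIF, 7.86 ± 0.07 with FGF2+LIF, 8.30 ± 0.07 with PD0325901+JAKi and 8.0 ± 0.07 with FGF2+JAKi. Only the array with PD0325901+LIF stood well above the others, and both FGF2 arrays were below both PD0325901 arrays. With FGF2 it was 1.89-fold lower in LIF, a log2 difference of -0.92, and the log2 difference in the JAK inhibitor was -0.31. Its promoter, printed above, held no match to the NRF1, ETS or YY1 motif.

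Ndufs4 encodes an accessory subunit of complex I whose loss is known to cause a Leigh-like disease in mice. Its signal (probe ILMN_1234521) was 11.14 ± 0.05 with PD0325901+LIF, 10.45 ± 0.05 with FGF2+LIF, 10.90 ± 0.06 with PD0325901+JAKi and 10.78 ± 0.04 with FGF2+JAKi. The array with FGF2+LIF was the low one, and the arrays with the JAK inhibitor lay close together. The log2 difference with FGF2 was -0.69 in LIF and -0.13 in the JAK inhibitor. All 4 detected probes of Ndufs4 were lower with FGF2 in LIF, by -0.70 to -0.34. In the JAK inhibitor they ran from -0.22 to 0.10 and did not share a sign. The YY1 match in its promoter begins 36 bases after the start site.

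Uqcrb, a small subunit of complex III that lies near its ubiquinone site, had a signal of 9.91 ± 0.07 with PD0325901+LIF, 9.16 ± 0.08 with FGF2+LIF, 9.39 ± 0.10 with PD0325901+JAKi and 9.11 ± 0.08 with FGF2+JAKi. The array with PD0325901+LIF was the high one, and the differences with FGF2 were -0.75 in LIF and -0.28 in the JAK inhibitor. Cox6b2, known as the testis isoform of complex IV subunit VIb, measured 8.93 ± 0.09, 8.23 ± 0.08, 8.41 ± 0.12 and 8.03 ± 0.06 in the same order of arrays. It was lower on each FGF2 array than on its PD0325901 partner, with log2 differences of -0.70 in LIF and -0.38 in the JAK inhibitor. Cox7a2l, a homologue of subunit VIIa that is known to join complexes III and IV into supercomplexes, measured 10.35 ± 0.05, 9.70 ± 0.07, 10.00 ± 0.06 and 9.92 ± 0.05. Its log2 difference with FGF2 was -0.65 in LIF and -0.09 in the JAK inhibitor, with a bead error of 0.08.

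Other genes of the same complexes had level signals. Uqcrc1, a core protein of complex III, measured 11.42 ± 0.06, 11.42 ± 0.04, 11.36 ± 0.06 and 11.37 ± 0.07 in the order PD0325901+LIF, FGF2+LIF, PD0325901+JAKi and FGF2+JAKi. Its arrays spanned 0.06 log2 units, and its promoter, printed above, holds 2 matches to the NRF1 motif, both within the first 50 bases after the start site. Cox4i1, the ubiquitous isoform of complex IV subunit IV, lay between 13.08 and 13.13 on the 4 arrays. Atp5b, the catalytic beta subunit of the ATP synthase, measured 14.17 ± 0.04, 14.27 ± 0.05, 14.05 ± 0.06 and 14.20 ± 0.04, so it was higher with FGF2, by 0.10 in LIF and 0.15 in the JAK inhibitor.

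**Figure D2:**
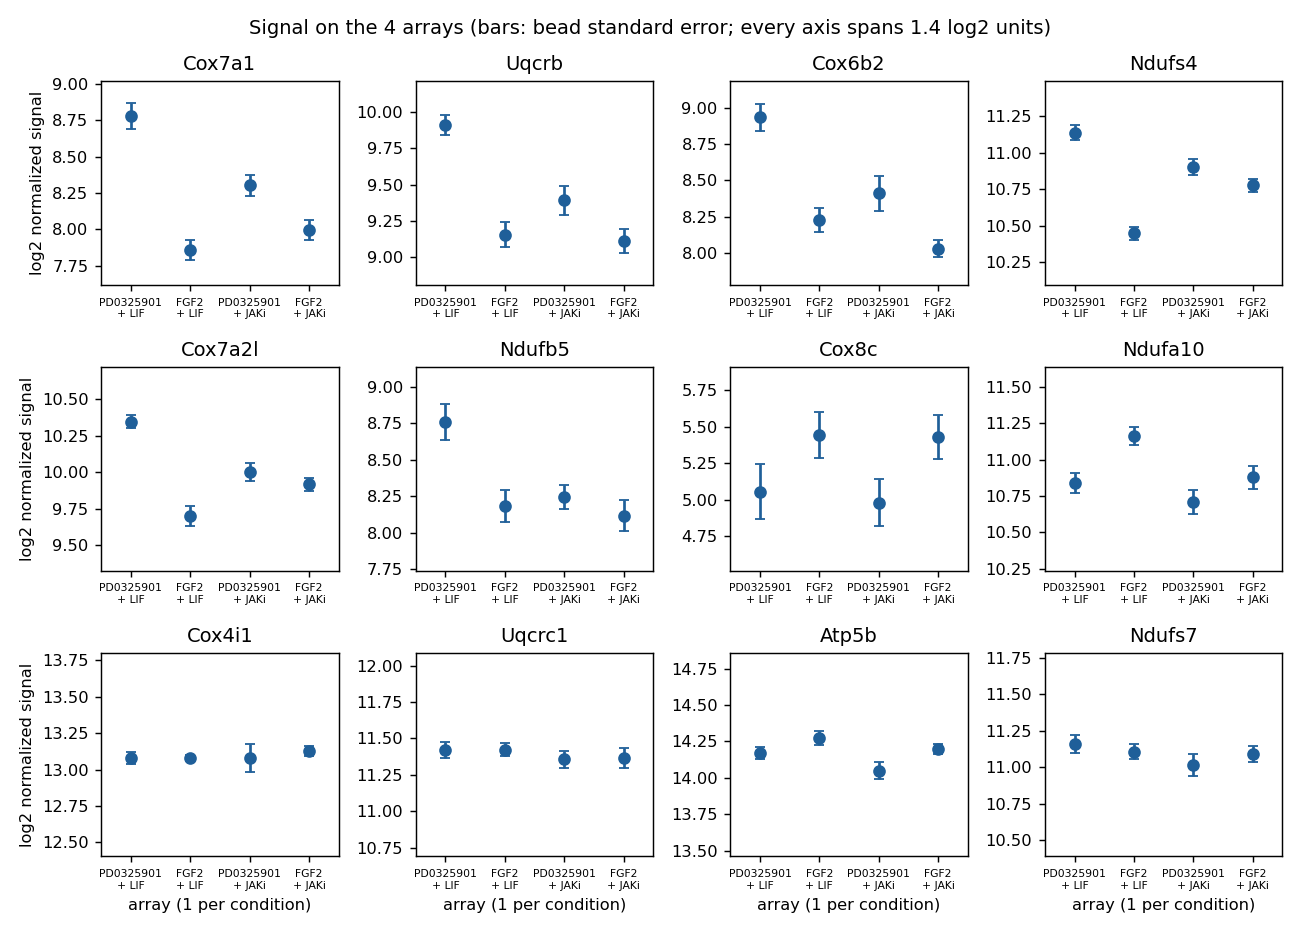
Log2 normalized signal of 12 genes on the 4 arrays, with bars for the bead standard error, each on an axis that spans 1.4 log2 units. Cox7a1, Uqcrb, Cox6b2, Ndufs4, Cox7a2l and Ndufb5 are highest with PD0325901+LIF, Cox8c is higher on both FGF2 arrays, and Cox4i1 and Uqcrc1 are level.

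In LIF, the median log2 difference between FGF2 and PD0325901 was -0.19 over the 76 genes, with an interquartile range of -0.30 to -0.08, against -0.01 over all genes tested. The difference was below 0 for 64 of the 76, where 50.7% of all genes were below 0. At least 1.2-fold lower were 25 genes and at least 1.2-fold higher were 2, where 20.6% of all genes were lower and 21.3% higher. Among the 4171 brightest genes, 23 of 68 genes of the set were lower by 1.2-fold, against 17.5% of all 4171. Most of the set therefore lay below 0, with 25 of 76 genes past a fold of 1.2. The 2 higher genes were Cox8c and Ndufa10. With median scaling 14 genes were lower and 2 higher, where 12.0% of all genes were lower and 32.1% higher, and with no normalization 11 were lower and 3 higher, where 10.5% and 35.2% were.

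In the JAK inhibitor, the same change from PD0325901 to FGF2 gave a median of -0.09 against -0.00 over all genes. Below 0 were 57 of 76 genes, where 50.9% of all genes were. At least 1.2-fold lower were 13 genes and higher 1, Cox8c, where 14.8% of all genes were lower and 15.0% higher, so the share that was lower lay near the background. The 13 include Ndufaf3, which passed the detection filter only through PD0325901+JAKi. With detection required on all 4 arrays 12 of 74 were lower, where 12.7% of all genes were. These shares depend on how the arrays were scaled: with each array scaled to its median in place of quantile normalization, 1 gene was lower and 32 were higher by 1.2-fold, where 5.12% of all genes were lower and 54.7% higher. With no normalization 1 was lower and 59 higher, where 2.83% and 71.9% of all genes were. Median scaling moved the median of all genes to 0.29, and the median of the set was then 0.24, a distance of -0.05 from it.

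Among the 4171 brightest genes, 10 of 68 genes of the set were lower for FGF2 in the JAK inhibitor, where 9.16% of all 4171 were, 15 for the JAK inhibitor with PD0325901, where 14.6% were, and 2 for the JAK inhibitor with FGF2, where 9.04% were. At 1.5-fold, the only gene of the set in these 3 differences was Ndufaf3, lower for FGF2 in the JAK inhibitor, where 2.22% of all genes were lower and 2.46% higher, and higher for the JAK inhibitor with PD0325901, where 4.54% were lower and 4.88% higher. Ndufaf3 entered the set only through PD0325901+JAKi, the array where it is high, so it had to differ from the arrays where it was not above background. With FGF2 the JAK inhibitor gave 0 genes of the set at 1.5-fold, where 2.84% were lower and 1.83% higher. These 1.5-fold counts depend on the processing. In the authors' deposited values Sdhd (-0.91), Cox7b (-0.83), Ndufb9 (-0.64) and Ndufb11 (1.10) passed 1.5-fold for the JAK inhibitor with FGF2. For FGF2 in the JAK inhibitor, Atp5e (-0.66), Sdhd (-0.66) and Cox8c (0.90) passed it beside Ndufaf3 (-1.72). The share of all genes past 1.5-fold in those values was not computed.

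The JAK inhibitor in place of LIF gave a median of -0.12 with PD0325901, against 0.00 over all genes. Below 0 were 59 of 76 genes, where 49.7% of all genes were. At least 1.2-fold lower were 17 genes and higher 1, where 19.5% of all genes were lower and 21.7% higher. The 1 higher gene was Ndufaf3, which entered the set only through the array where it is high. With detection required on all 4 arrays 0 were higher. With median scaling 41 were lower and 1 higher, where 25% of all genes were lower and 17.8% higher, and with no normalization 46 and 1, where 28.1% and 16% were. With FGF2 the median was -0.03 against 0.01 over all genes, 43 genes were below 0 where 47.8% of all genes were, and 4 were lower and 2 higher by 1.2-fold, where 14.1% of all genes were lower and 14.1% higher. On the quantile-normalized values the count past 1.2-fold was thus lowest between both FGF2 arrays. Scaled to the median, 3 were lower and 6 higher there, where 9.75% of all genes were lower and 26.2% higher, and the median of all genes was 0.12. With no normalization 3 were lower and 14 higher, where 6.86% and 39.0% of all genes were. The spread of all genes was also larger in both differences that use the array with PD0325901+LIF, with standard deviations of 0.363 and 0.358, than in the others, at 0.288 and 0.289.

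The FGF2 difference in LIF and the JAK inhibitor difference with PD0325901 share the array with PD0325901+LIF, so a high value on that array alone enters both. The summed signal of markers of fibroblasts and feeder cells was also highest on that array. Of 8 such markers, 5 were detected, and Col1a2, Col3a1 and Postn were not. Their summed linear signal was 3635 with PD0325901+LIF, 2346 with FGF2+LIF, 3202 with PD0325901+JAKi and 2175 with FGF2+JAKi. The proteoglycan gene Dcn had a log2 signal of 8.86 on the first of these arrays and 6.45 to 6.70 on the others. All 5 markers were lower by 1.2-fold for FGF2 in LIF, where 20.6% of all genes were. For the JAK inhibitor with PD0325901, 3 of the 5 were, where 19.5% of all genes were, and 1 lay above 0. The part of other cells, or of that array, in the differences of the respiratory chain genes was not tested. Both differences that do not use that array were computed without it as well, and their medians were then -0.09 and -0.03. Leaving it out changed only the normalization, so these medians do not bear on the differences that use that array.

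**Figure D3:**
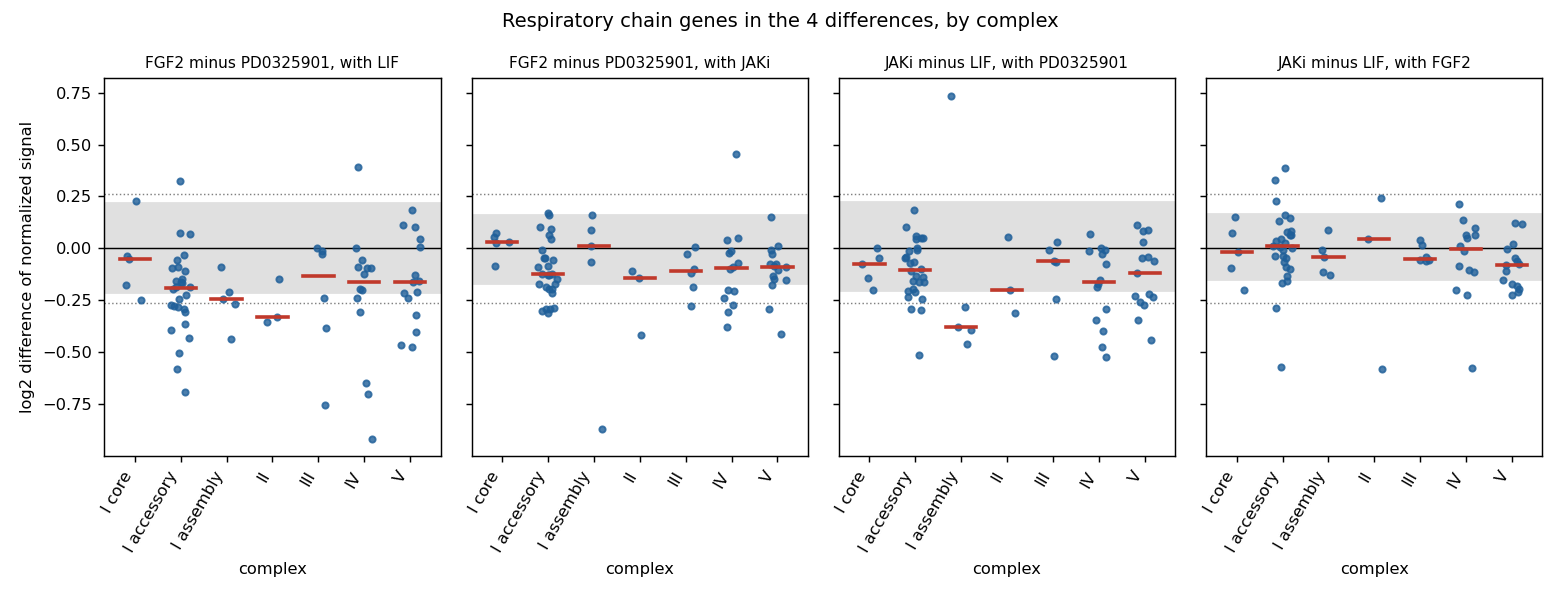
Log2 differences of the 76 genes (points) by complex in each of the 4 differences, with the median of each complex as a red line, the interquartile range of all 8341 genes in grey and the 1.2-fold bounds dotted. In LIF the points lie mostly below 0, with 25 past the lower bound, and between both FGF2 arrays they centre near 0.

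A gene was lower by at least 1.2-fold with FGF2 in both backgrounds for 6 of 76, where 5.06% of all genes were, a share close to that background. Below 0 in both were 52 of 76, where 30.6% of all genes were. Only Cox8c was higher by 1.2-fold in both. For the JAK inhibitor, 2 of 76 were lower by 1.2-fold on both sides, where 5.19% of all genes were, and 37 were below 0 on both, where 27.8% were.

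The additive limma fit took FGF2 against PD0325901 and JAK inhibitor against LIF as terms over all 4 arrays and all 8341 genes, and its 1 residual degree of freedom was the departure from additivity. It called 0 of 76 genes for FGF2 at an adjusted p below 0.05, where 0.240% of all genes were called, and 0 for the JAK inhibitor, where 0.288% were. At an unadjusted p below 0.05 there were 6 genes for FGF2, 5 lower and 1 higher, where 11.5% of all genes passed, and 3 for the JAK inhibitor, all lower, where 10.6% passed. The lowest Benjamini-Hochberg adjusted p of limma in the set was 0.307 for FGF2 (Cox6b2, a mean log2 difference of -0.54 ± 0.16 SE) and 0.363 for the JAK inhibitor (Cox7b, -0.49 ± 0.16 SE). The count for FGF2 depended on the background correction and on the variance model: with no background correction 6 genes were called, all lower (Cox6b2, Cox7a1, Cox7a2l, Ndufa5, Ndufs4 and Uqcrb), where 4.80% of all genes were called. With an offset of 50 there were 4 (Cox6b2, Cox7a1, Ndufs4 and Uqcrb), where 3.84% of all genes were called, and with an intensity trend in the variance 7, where 4.32% were. For the JAK inhibitor these settings called 0 with no background correction, where 4.15% of all genes were called, 0 with the offset of 50, where 3.26% were, and 1 with the trend (Cox8a), where 3.55% were. The FGF2 calls also depended on the normalization. With median scaling 0 of 76 were called for FGF2, where 5.25% of all genes were, and 0 for the JAK inhibitor, where 1.13% were. With no normalization 0 were called for FGF2, where 5.32% were, and 0 for the JAK inhibitor, where 0.587% were. In these settings the variance was fully pooled over genes, so a gene's own departure from additivity did not enter its error. Cox7a1, Ndufs4 and Cox7a2l, named among those called for FGF2, had the largest positive departures of the set.

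By complex, the core subunits of complex I, some of which carry its flavin and iron-sulphur clusters, had the median nearest to 0 with FGF2 in LIF. In each of the other differences another group had a median nearer to 0. The 5 detected of 6 annotated, Ndufs3, Ndufs7, Ndufs8, Ndufv1 and Ndufv2, had a median of -0.05 with FGF2 in LIF and 0.03 in the JAK inhibitor, and 0 of 5 differed by 1.2-fold in any of the 4 differences, where 14.1% to 21.7% of all genes did so in each direction. Ndufv1, the subunit that binds NADH, measured 11.75 ± 0.04 with PD0325901+LIF, 11.98 ± 0.04 with FGF2+LIF, 11.75 ± 0.06 with PD0325901+JAKi and 11.78 ± 0.04 with FGF2+JAKi. It was high on the array with FGF2+LIF only, against the direction of most of the set. Ndufs7 spanned 11.02 to 11.16 over the 4 arrays.

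The accessory subunits of complex I, which surround the core and are known to serve its assembly and stability, had 28 of 29 detected. The group was taken by symbol and includes Ndufa4 and Ndufs5-ps, which are described below. The median of the group with FGF2 in LIF was -0.19, with 25 of 28 below 0, 11 lower by 1.2-fold and 1 higher. Of all genes, 50.7% were below 0, 20.6% lower and 21.3% higher. Beside Ndufs4, the lowest was Ndufb5, at 8.76 ± 0.12, 8.18 ± 0.11, 8.25 ± 0.08 and 8.12 ± 0.10 in the order PD0325901+LIF, FGF2+LIF, PD0325901+JAKi and FGF2+JAKi. It was high on the first array only, with log2 differences of -0.58 for FGF2 in LIF and -0.51 for the JAK inhibitor with PD0325901. Ndufa5 measured 10.74 ± 0.05, 10.23 ± 0.06, 10.57 ± 0.06 and 10.38 ± 0.07, a difference of -0.50 with FGF2 in LIF and -0.19 in the JAK inhibitor.

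A few accessory genes had another order of arrays. Ndufa10 measured 10.84 ± 0.07, 11.16 ± 0.06, 10.71 ± 0.08 and 10.88 ± 0.08 and was higher on each FGF2 array than on its PD0325901 partner, by 0.33 and 0.17. Ndufb9 measured 7.48 ± 0.11, 7.56 ± 0.10, 7.27 ± 0.11 and 6.98 ± 0.09, so both JAK inhibitor arrays were low, by -0.57 with FGF2 and -0.21 with PD0325901. Ndufa9, a subunit near the ubiquinone site, was highest with PD0325901+JAKi (11.62 ± 0.08) and lowest with FGF2+LIF (11.25 ± 0.05). Ndufa13, the brightest probe of this group, spanned 12.68 to 12.89. Ndufa4 carries a complex I name and is now known as a complex IV subunit. It was 12.49 ± 0.05 with PD0325901+LIF and 12.20 ± 0.05 with PD0325901+JAKi, with both FGF2 arrays between them at 12.33 ± 0.05 and 12.36 ± 0.04.

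Some probes limit what can be said of a gene. Ndufs5-ps is annotated as a pseudogene of Ndufs5, and its probe spanned 9.96 to 10.05. More than 1 probe was detected for 13 of 76 genes, and these probes shared a sign in 9, 7, 10 and 7 of 13 genes in the 4 differences. Ndufv3 was the only one with probes 1.2-fold apart from 0 in opposite directions, at -0.29 and 0.63 for FGF2 in the JAK inhibitor, the second from a dim probe detected on 3 arrays. Ndufb11 was not detected with FGF2+LIF, and it was at least 1.08-fold lower there than with PD0325901+LIF.

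The assembly factors of complex I, which help to build the complex and are not part of it, were all 5 detected. In the JAK inhibitor with PD0325901, 4 of 5 were lower by 1.2-fold than in LIF, where 19.5% of all genes were. Ndufaf1 measured 8.97 ± 0.06 with PD0325901+LIF, 8.71 ± 0.06 with FGF2+LIF, 8.58 ± 0.09 with PD0325901+JAKi and 8.59 ± 0.08 with FGF2+JAKi. Ndufaf5 measured 7.91 ± 0.07, 7.67 ± 0.09, 7.45 ± 0.08 and 7.54 ± 0.10 in the same order. Both were highest on the first array and lowest on PD0325901+JAKi, and Ndufaf4 (9.33 ± 0.07, 9.12 ± 0.06, 8.95 ± 0.07 and 9.11 ± 0.05) had the same order of its extremes. For Ndufaf1 and Ndufaf5 the bead errors of the JAK inhibitor arrays overlapped, so which of those was lowest is not resolved. A dimmer probe of Ndufaf5, detected on all 4 arrays, measured 5.11, 5.11, 5.04 and 4.98, lowest with FGF2+JAKi. It differed by -0.07 for the JAK inhibitor with PD0325901, against -0.46 for the probe used. Ndufaf7 measured 7.85 ± 0.09, 7.42 ± 0.07, 7.57 ± 0.08 and 7.50 ± 0.07, with its lowest value with FGF2+LIF. Ndufaf3 was detected only with PD0325901+JAKi, at 5.59 ± 0.16, at least 1.66-fold above PD0325901+LIF and at least 1.73-fold above FGF2+JAKi.

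Complex II, the succinate dehydrogenase, was represented by the iron-sulphur subunit Sdhb and the membrane anchors Sdhc and Sdhd, all detected. Sdhb measured 9.48 ± 0.08 with PD0325901+LIF, 9.16 ± 0.06 with FGF2+LIF, 9.54 ± 0.10 with PD0325901+JAKi and 9.40 ± 0.06 with FGF2+JAKi, with 1 low array, FGF2+LIF. Sdhc measured 10.24 ± 0.05, 9.88 ± 0.06, 10.04 ± 0.07 and 9.93 ± 0.07 and was high with PD0325901+LIF. Sdhd measured 6.05 ± 0.10, 5.91 ± 0.13, 5.74 ± 0.13 and 5.33 ± 0.11 and was low with FGF2+JAKi, a log2 difference of -0.58 from FGF2+LIF. The lowest array of Sdhb and Sdhc was thus FGF2+LIF and that of Sdhd FGF2+JAKi, and the median of the group with FGF2 in LIF was -0.33.

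Of complex III, 6 of 8 annotated genes were detected, with a median of -0.13 for FGF2 in LIF. Beside Uqcrb, the hinge protein Uqcrh was lower by 1.2-fold, at 12.10 ± 0.04 with PD0325901+LIF, 11.72 ± 0.04 with FGF2+LIF, 11.86 ± 0.05 with PD0325901+JAKi and 11.74 ± 0.04 with FGF2+JAKi. Uqcrc2, the second core protein, was 11.10 ± 0.07 and 11.09 ± 0.08 on the PD0325901 arrays and 10.86 ± 0.05 and 10.91 ± 0.05 on the FGF2 arrays, so the pairs did not overlap (with median scaling the difference in the JAK inhibitor was 0.15). Uqcr10 and Uqcr11 spanned 0.10 and 0.09 log2 units.

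Complex IV held the widest range, from -0.92 to 0.39 with FGF2 in LIF over 14 detected of 18 annotated genes, with a median of -0.16. Its isoform sets can be read gene by gene. In the VIIa set, Cox7a2, the form known from most tissues, measured 6.90 ± 0.10 with PD0325901+LIF, 6.60 ± 0.12 with FGF2+LIF, 6.72 ± 0.09 with PD0325901+JAKi and 6.52 ± 0.07 with FGF2+JAKi. All 3 detected genes of that set were lower with FGF2 in LIF, by -0.30 for Cox7a2, -0.65 for Cox7a2l and -0.92 for Cox7a1.

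In the VIb set, Cox6b1, the widely expressed form, measured 11.64 ± 0.04, 11.41 ± 0.04, 11.49 ± 0.07 and 11.29 ± 0.05, a log2 difference of -0.24 with FGF2 in LIF and -0.20 in the JAK inhibitor. Both isoforms were lower with FGF2 on either side, but with median scaling the differences in the JAK inhibitor were 0.17 for Cox6b1 and -0.02 for Cox6b2. In the VIII set the detected genes had different patterns. Cox8a, the widely expressed form, measured 12.98 ± 0.07, 12.89 ± 0.04, 12.69 ± 0.07 and 12.67 ± 0.05, and both JAK inhibitor arrays were below both LIF arrays. Cox8c, known as a testis isoform, measured 5.05 ± 0.19, 5.45 ± 0.16, 4.98 ± 0.16 and 5.43 ± 0.15. It was near the detection limit, and both FGF2 arrays were above both PD0325901 arrays, by 0.39 ± 0.24 in LIF and 0.45 ± 0.22 in the JAK inhibitor (bead errors).

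Of the other subunits, Cox7b measured 6.04 ± 0.13, 5.98 ± 0.19, 5.64 ± 0.18 and 5.41 ± 0.16 and was lower on both JAK inhibitor arrays, by -0.40 with PD0325901 and -0.58 with FGF2. Cox5a, which stands in the matrix part of the complex, spanned 13.10 to 13.19, Cox6a1 12.68 to 12.80 and Cox7c 12.78 to 12.94. Cox5b measured 13.04 ± 0.06, 12.84 ± 0.03, 12.87 ± 0.06 and 12.91 ± 0.05 and was high on the first array only.

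Of the ATP synthase genes, 15 of 16 were detected, with a median of -0.16 for FGF2 in LIF, 4 lower by 1.2-fold and 0 higher, where 20.6% of all genes were lower and 21.3% higher, so the lower share was near the background. Those 4, named after their values were seen, belong to the peripheral stalk and the membrane part of the enzyme. They do not stand for those parts, whose other genes did not pass 1.2-fold. These were Atp5pb (-0.24), Atp5g1 (-0.21), Atp5h (-0.16), Atp5j2 (0.01), Atp5g3 (0.04) and Atp5g2 (0.11). Atp5j, a stalk subunit known as coupling factor 6, measured 12.18 ± 0.05 with PD0325901+LIF, 11.71 ± 0.03 with FGF2+LIF, 11.91 ± 0.06 with PD0325901+JAKi and 11.83 ± 0.04 with FGF2+JAKi. A dimmer probe of Atp5j, detected on all 4 arrays, differed by -0.11 for FGF2 in LIF, short of 1.2-fold. In the JAK inhibitor that probe differed by 0.26. Atp5o, the stalk subunit OSCP, measured 8.84 ± 0.07, 8.38 ± 0.07, 8.40 ± 0.08 and 8.30 ± 0.08, with only the first array high. Atp5mpl (12.32 ± 0.06, 11.91 ± 0.05, 12.09 ± 0.07 and 11.91 ± 0.04) and Atp5l (10.97 ± 0.05, 10.64 ± 0.04, 10.75 ± 0.06 and 10.66 ± 0.06) had the same high array.

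The subunits of the catalytic head and the central stalk did not all differ in the same direction. Atp5c1, the central gamma subunit, measured 11.76 ± 0.05, 11.94 ± 0.04, 11.87 ± 0.07 and 11.88 ± 0.04, with its lowest value on the array where most of the set was highest. Atp5a1, the alpha subunit, ranged from 8.31 to 8.66, and Atp5d, the delta subunit, from 10.59 to 10.90. Atp5e, the epsilon subunit and the dimmest of the group, measured 5.65 ± 0.13, 5.43 ± 0.12, 5.73 ± 0.14 and 5.32 ± 0.13. The genes Atp5g1, Atp5g2 and Atp5g3 encode the same mature subunit c of the rotor ring and differ in their import sequences. Atp5g1 was highest with PD0325901+LIF (12.02 ± 0.07) and lowest with FGF2+JAKi (11.61 ± 0.06), while Atp5g2 spanned 10.37 to 10.54 and Atp5g3 13.73 to 13.82.

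The size of the difference varied with signal. With FGF2 in LIF, the 12 genes of the set with a mean log2 signal from 8 to 10 had a median of -0.43, all 12 were below 0 and 9 were lower by 1.2-fold, where 17.8% of all genes in that range were lower. The 35 genes from 10 to 12 had a median of -0.21, the 15 above 12 a median of -0.09 and the 14 below 8 a median of -0.17. The medians of all genes in these ranges lay near 0.

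**Figure D4:**
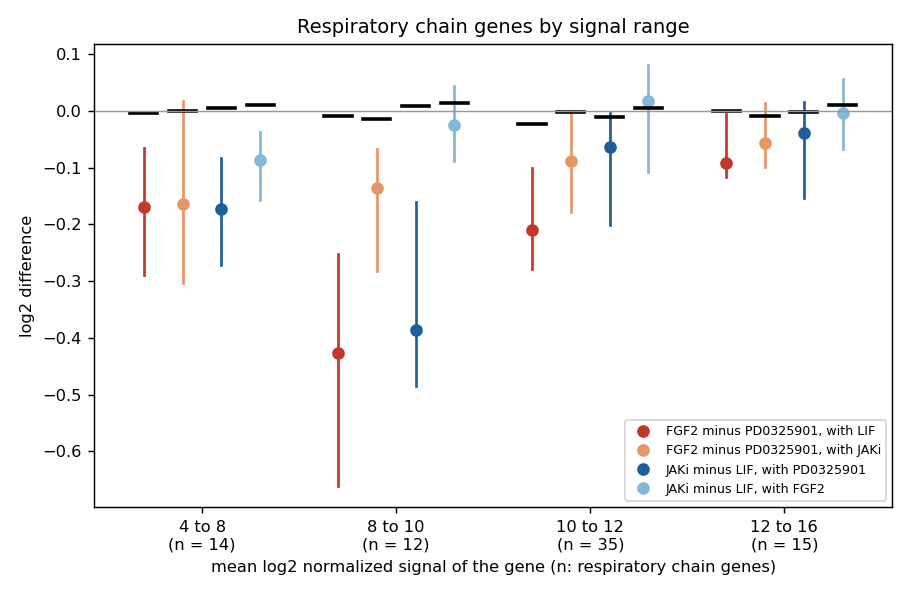
Median log2 difference of the genes of the set (points, with lines for the interquartile range) in 4 ranges of mean log2 signal, for each of the 4 differences, with the median of all genes in the same range as a black bar. The median with FGF2 in LIF is -0.43 from 8 to 10 and -0.09 from 12 to 16.

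The departure from additivity, the FGF2 difference in the JAK inhibitor minus that in LIF, had a median of 0.08 over the set and 0.00 over all genes. The largest positive departures were those of Cox7a1 (0.61), Ndufs4 (0.56) and Cox7a2l (0.56), for each of which the difference with FGF2 was nearer to 0 in the JAK inhibitor. Among genes detected on all 4 arrays, the most negative were those of Ndufb9 (-0.36) and Sdhd (-0.27). Ndufaf3 was not above background on 3 arrays, so its departure is not given. With 1 array per condition the departure has no test.

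Of the 76 genes, 65 had a promoter sequence in RefSeq. The NRF1 motif was found in 15 of them (23.1%), in 12.3% of the promoters of all genes tested and in 5.19% of all promoters. The YY1 motif AAGATGGC was found in 10 (15.4%), against 5.73% and 3.19%, and the ETS motif ACCGGAAG, which GABP is known to bind, in 7 (10.8%), against 5.51% and 2.60%. The median with FGF2 in LIF was -0.15 for the 15 genes with the NRF1 motif and -0.22 for the 50 without it. For the ETS motif it was -0.22 for the 7 genes with it and -0.18 for the 58 without it. For the YY1 motif it was -0.20 for the 10 with it and -0.19 for the 55 without it. These splits were not tested. A match is a run of letters and does not show binding.

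In 4 further mitochondrial lists, 0 genes were called for either factor in the additive fit, where 0.240% of all genes were called for FGF2 and 0.288% for the JAK inhibitor. Electron carriers and assembly factors outside the set, 30 detected of 39 listed, had a median of -0.10 with FGF2 in LIF, 7 lower and 2 higher by 1.2-fold, where 20.6% of all genes were lower and 21.3% higher. Of these, Gpd2, the mitochondrial glycerol 3-phosphate dehydrogenase that also feeds electrons to ubiquinone, was higher with FGF2, from 8.74 to 9.32 in LIF and from 8.99 to 9.45 in the JAK inhibitor. Genes of mitochondrial protein import, 16 of 21 detected, had a median of -0.17, 15 of 16 below 0, where 50.7% of all genes were. Genes of the TCA cycle and pyruvate dehydrogenase, 16 of 19 detected, had a median of 0.06, 0 lower and 3 higher by 1.2-fold, beside the same shares of 20.6% and 21.3%.

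Regulators of mitochondrial biogenesis, 15 of 20 detected, had a median of 0.09 with FGF2 in LIF, 2 lower and 4 higher by 1.2-fold, where 20.6% of all genes were lower and 21.3% higher. Nrf1 measured 7.63, 7.74, 7.58 and 7.86 in the order PD0325901+LIF, FGF2+LIF, PD0325901+JAKi and FGF2+JAKi. Tfam, the packaging factor of mitochondrial DNA, measured 9.03, 8.98, 8.87 and 9.12. Polrmt, the mitochondrial RNA polymerase, measured 9.29, 9.85, 9.75 and 9.85 and was low on the array where most genes of the set were highest. Whether the set differs from these lists was not tested.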

How the data were processed

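Total RNA of each culture was hybridised to 1 Illumina array. Per the file headers, each deposited table held a signal and its bead standard error in units of intensity and a detection p-value for 25697 probes. BeadStudio was used, per the submitters' processing notes; its version and its settings were not found in the labels or headers. The deposited value table of the authors, also an intensity, was used as an alternative.

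Signals were background-corrected with limma's nec (offset 16), log2-transformed and then quantile-normalized across the 4 arrays (limma 3.58.1, R 4.3.3). Symbols came from the probe annotation, updated through the RefSeq gene table (GRCm38.p6). Probes needed a detection p-value below 0.01 on any of the arrays, and a gene was read from its brightest probe. If just 1 array of a difference detected a gene, the detection limit of the other array bounded the fold. Differences between single arrays have no test. The additive limma fit (lmFit, then eBayes, with Benjamini-Hochberg adjustment across 8341 genes) has 1 residual degree of freedom. Its p-values assume additive factors and measure only the spread between these arrays. The fit was run on simulated data in which the factors add and the changes are larger than any mean FGF2 difference in the set. That run does not show how the fit behaves for smaller differences or for departures from additivity.

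The members, the lists, the folds of 1.2 and 1.5 and the motifs were chosen with earlier results of these data known. Genes were named by rule: the 4 highest and the 4 lowest in each difference, those past 1.5-fold, the 3 largest departures either way, the brightest and dimmest of each complex, isoform sets, and genes detected on some arrays only. Others (such as Uqcrc1, Atp5j, Ndufa5 and Ndufaf1) were named after their values were seen.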

Additional observations from a re-analysis of the deposited data

How the results depend on the processing

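The medians, the 1.2-fold counts, the departure and the fit's calls over the whole set were recomputed with no background correction or an offset of 50, with median scaling or no normalization in place of quantile normalization, with another detection filter, with the mean of a gene's probes and with the authors' value table. The intensity trend was run for the fit's calls only. Chosen after seeing the data, the medians and counts were also taken among the 4171 brightest genes and, for both differences without the PD0325901+LIF array, without that array. The array ranks were recomputed with the scalings and the authors' values only, and the complexes, signal ranges and lists under no alternative. Of these values, 78 kept within their bounds and 28 did not. At 1.5-fold in place of 1.2-fold, 5, 1, 1 and 0 genes differed for FGF2 in LIF, FGF2 in the JAK inhibitor, the JAK inhibitor with PD0325901 and the JAK inhibitor with FGF2. The 1.5-fold counts were not recomputed under the other settings. With no background correction, 6 genes differed by 1.2-fold for FGF2 in the JAK inhibitor and 3 for the JAK inhibitor with FGF2, and 6 were called for FGF2. With an offset of 50, the first of these counts was 9, and 4 genes were called for FGF2. With the intensity trend, 7 were called for FGF2 and 1 for the JAK inhibitor (Cox8a). Among the brightest genes, 3 genes differed for the JAK inhibitor with FGF2.

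With median scaling, the count for FGF2 in LIF was 16 (14 lower, where 12.0% of all genes were). For FGF2 in the JAK inhibitor the median was 0.24 and the count 33 (32 higher, where 54.7% of all genes were). For the JAK inhibitor it was -0.29 and 42 with PD0325901 (41 lower, where 25% were), and the median was 0.079 with FGF2. The median departure was 0.37. With no normalization, the median and count were -0.10 and 14 for FGF2 in LIF (11 lower, where 10.5% of all genes were), 0.38 and 60 for FGF2 in the JAK inhibitor (59 higher, where 71.9% were), -0.31 and 47 for the JAK inhibitor with PD0325901 (46 lower, where 28.1% were), and 0.16 and 17 with FGF2 (14 higher, where 39.0% were), and the median departure was 0.48. The cause was not tested. Relative to the median of all genes, the set's median stayed below 0 under each alternative run: between -0.24 and -0.16 for FGF2 in LIF, -0.09 and -0.05 for FGF2 in the JAK inhibitor, -0.23 and -0.11 for the JAK inhibitor with PD0325901, and -0.05 and -0.02 with FGF2. Median scaling shifts each array by a constant, so these distances are the same with it as with no normalization. Those settings are not separate alternatives here.

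No paired analysis was possible because each condition had 1 array and the labels give no replicate numbers. With 1 array per condition, the spread between cultures is unknown, and bead errors cover 1 array only. Probes near the detection limit (Cox8c, Ndufaf3 and Ndufb11) have differences of uncertain size. The differences of Sdhd, Cox7b and Atp5e, which were also dim, were larger in the authors' values.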
